A study of Mus musculus with 12 samples.

Results

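Kidneys of lean db/m mice at 16 weeks of age were compared with kidneys of lean db/m mice at 8 weeks. The comparison rests on 6 of the 12 arrays of the study, the 3 titled db/m at 16 weeks and the 3 titled db/m at 8 weeks, and on every probe set that is not a control, 12422 in all. A probe set is a group of short DNA probes on the array that together measure 1 transcript. Of these probe sets 6949 passed a filter on dim signal and were tested. db/m mice carry 1 mutated copy of the leptin receptor gene Lepr and are the lean controls of the obese and diabetic db/db mice, which carry the mutation on both copies. Thus the kidneys of both ages were heterozygous for the mutation, and neither age was a wild type. Total RNA of the kidney was extracted on RNeasy columns, and some 8 ug went into the labelled target of each Affymetrix array. The labels call the 3 arrays of each group biological replicates and give neither sex, strain, diet nor time of day, so p-values measure the spread between these samples. A keyword in the labels reads db/m for all 12 samples, also for those titled db/db, and the groups follow the titles. The db/db kidneys, 3 arrays at each age, entered the estimate of the spread and the test of whether age acted differently in them.

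The mouse kidney grows and acquires its adult transport and metabolic functions during the first weeks of life, and by young adulthood all nephron segments are in place. Its proximal tubule takes most of its energy from fatty acids, which are oxidised in mitochondria and peroxisomes under the control of the nuclear receptor PPAR-alpha, encoded by Ppara. Cholesterol synthesis is controlled separately, by SREBP transcription factors that respond to the sterol content of the cell.

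The kidney origin of the RNA was clear at both ages. Intensity of Umod, the uromodulin of the thick ascending limb, was 13860, 16640 and 16570 at 8 weeks and 14350, 14410 and 15720 at 16 weeks. Intensity of Slc34a1, the phosphate transporter of the proximal tubule, was 40680, 47930 and 46120 at 8 weeks and 37330, 37330 and 43710 at 16 weeks. The ages overlapped for both genes. Aqp2, a collecting duct gene, varied more within each age, at 21000, 13250 and 7286 and at 16170, 6824 and 7510. Neither of the 2 probe sets of Lepr passed the filter, so the array could not check the genotype. Arrays of the same age correlated at 0.961 to 0.971 and arrays of different ages at 0.939 to 0.964. A principal component analysis put 41.6% of the variance on its first axis. The 8 week replicates 1, 2 and 3 lay at -16, -12 and -19.4 on it. The 16 week replicate 3, at 4.4, fell between these and the other 16 week arrays (21.2 and 21.8). Ratios that bear on RNA quality moved with age. The ratio of signal at the 3' end to that at the 5' end of the actin control was 1.62, 2.14 and 1.46 at 8 weeks and 2.65, 2.82 and 2.04 at 16 weeks. For the Gapdh control the ratios were 0.896, 0.928 and 0.88 against 1.22, 1.18 and 0.971, with no overlap. Those for pyruvate carboxylase were 17.4, 7.68 and 3.24 against 34.5, 28.6 and 28.7, also with no overlap, while those for actin overlapped. Within each age the arrays had the same order on the first axis as in the actin ratio. The part of this ratio in the axis was not tested. A larger ratio is known to accompany RNA that is more degraded or copied less completely.

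Between 8 and 16 weeks, 59 probe sets changed, 0.849% of those tested (limma, Benjamini-Hochberg adjusted p under 0.05 over all 6949). Of these, 31 were higher and 28 lower at 16 weeks. They represented 51 named genes, and 4 of the probe sets had no single gene symbol. Of the higher probe sets 23 changed at least 2-fold, as did 19 of the lower ones. With 1 probe set for each of 5360 genes, the brightest, 28 genes rose (0.522%) and 16 fell (0.299%). The median log2 change of all genes was -0.01. Genes are called separated below where all 3 arrays of one age lay above all 3 of the other: 640 genes were separated upward at 16 weeks (11.9%) and 677 downward (12.6%). Among the rises were enzymes of fatty acid oxidation and the aldehyde dehydrogenase Aldh1a1, and among the falls were enzymes of sterol synthesis, the nuclear receptor Hnf4a and the deiodinase Dio1.

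**Figure D1:**
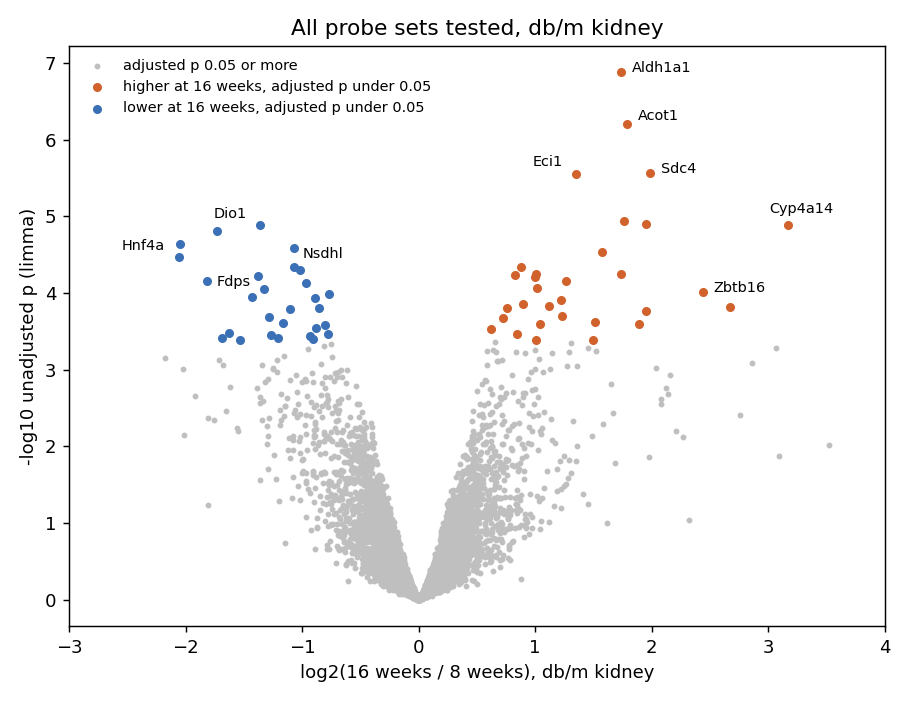
Log2 change between 8 and 16 weeks in db/m kidney (horizontal) against -log10 of the unadjusted p from limma (vertical), 1 point for each of 6949 probe sets. The 31 probe sets higher at 16 weeks with an adjusted p under 0.05 are orange and the 28 lower ones blue, and Aldh1a1 has the smallest p.

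The number of calls depended on single arrays and on the actin ratio. Without 8 week replicates 1, 2 and 3 the number called was 21, 27 and 6, and without 16 week replicates 1, 2 and 3 it was 10, 7 and 102. Of the 59 calls, 54 ended in at least 1 of these refits: 44, 38 and 53 without 8 week replicates 1, 2 and 3, and 51, 53 and 9 without 16 week replicates 1, 2 and 3. The 5 that never ended were Aldh1a1, Acot1, Eci1, Sdc4 and Cyp4a14. With the actin 3' to 5' ratio as a covariate, no probe set passed (limma, 382 at an unadjusted p under 0.05, against 893 without the covariate), and age and this ratio cannot be fully told apart in these 6 kidneys. All 59 kept their direction with the covariate. The median log2 change of the 31 higher probe sets was 1.26 without the covariate and 1.37 with it, and 17 of these 31 were smaller with it, while that of the 28 lower ones went from -1.19 to -0.85, and 26 of these 28 were smaller with it. Aldh1a1, Acot1, Eci1 and Sdc4 passed in 17 of 18 alternatives, all but the covariate.

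The list of fatty acid oxidation contributed 8 of the 28 genes that rose. It was written with earlier results of these data known. It also holds the Cyp4a cytochromes, the thioesterase Acot1 and the pantetheinase Vnn1. Of the 44 genes listed, 32 were on the array and 29 passed the filter on dim signal. Of these 29, 8 rose and 1 fell, beside 0.522% and 0.299% of all genes. Their median log2 change was 0.58, and in 21 all 16 week arrays lay above all 8 week arrays, beside 11.9% of all genes. Cyp4a14, a cytochrome that adds a hydroxyl group to the end of fatty acids, had the largest rise. Its intensity was 1730, 1496 and 447 at 8 weeks and 8609, 7047 and 13830 at 16 weeks. The ages did not overlap, although the third array at 8 weeks was far below the other two (log2 change 3.17, SE 0.43, adjusted p from limma 0.0113). Its relative Cyp4a10 was measured by a probe set that may also read related cytochromes, at 3993, 4802 and 3748 against 14420, 12130 and 16170 (1.77, SE 0.24, adjusted p from limma 0.0113).

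Other members of the list rose too. Acot1, a thioesterase that frees fatty acids from coenzyme A in the cytosol, was at 2128, 2379 and 2652 at 8 weeks and at 9484, 7415 and 7932 at 16 weeks. All 16 week arrays were far above all 8 week arrays (1.79, SE 0.18, adjusted p from limma 0.00214). Eci1, a mitochondrial isomerase needed to oxidise unsaturated fatty acids, was at 6779, 6964 and 8291 and then at 20900, 18700 and 16640, again without overlap (1.35, SE 0.16, adjusted p from limma 0.00481). Vnn1, a pantetheinase at the cell surface, was at 4027, 4623 and 4585 at 8 weeks and at 13810, 8001 and 10050 at 16 weeks. The spread of Vnn1 was wider at 16 weeks than at 8 weeks, and the ages stayed apart (1.23, SE 0.23, adjusted p from limma 0.0354). The peroxisomal bifunctional enzyme Ehhadh rose by 0.84 (SE 0.17) on the log2 scale, the peroxisomal thiolase Acaa1b by 0.73 (SE 0.14) and the mitochondrial thiolase Acaa2 by 0.62 (SE 0.12). A second, dimmer probe set of Acaa1b had 0.27 and did not pass. These last 4 calls ended whichever 1 of the 6 arrays was left out: Vnn1 at adjusted p 0.0545 to 0.145 (limma; 0.00625 to 0.473 over all alternatives), Ehhadh at 0.0657 to 0.175 (0.015 to 0.41), Acaa1b at 0.0583 to 0.155 (0.00492 to 0.733) and Acaa2 at 0.0773 to 0.177 (0.00234 to 0.655). That of Cyp4a10 ended without 8 week replicate 3 or 16 week replicate 1, at adjusted p 0.0522 to 0.0612 (limma; 0.000746 to 0.318 over all alternatives). That of Cyp4a14 ended with the db/m arrays fitted alone and with the actin covariate.

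Several members lay just short of the threshold. Decr1, a reductase for unsaturated fatty acids, had a log2 change of 0.91 (adjusted p from limma 0.056) and Acadl, the long-chain acyl-CoA dehydrogenase, of 1.15 (0.0563). Pdk4, the kinase that shuts carbohydrate out of the mitochondrion when fat is burned, was at 444, 400 and 1036 at 8 weeks and at 8421, 4973 and 1684 at 16 weeks. That is a log2 change of 2.86, larger than all but Cyp4a14 in the list, with a wide spread within each age, and it did not pass (SE 0.63, adjusted p from limma 0.0671). Carnitine enzymes Cpt1a and Cpt2, which bring fatty acids into mitochondria, had log2 changes of 0.55 and 0.44 and did not pass. Ppara itself was at 1281, 1662 and 2203 and at 1775, 2798 and 1534, with overlapping ages. The short-chain dehydrogenase Acads was the 1 member that fell, by 0.77 (SE 0.13, adjusted p from limma 0.0256) on the log2 scale. A second, dimmer probe set for Acads had a log2 change of 0.25 and did not pass, so its 2 probe sets disagree, and the call ended without 8 week replicates 1 or 3 or 16 week replicates 1 or 2 (adjusted p 0.0657 to 0.121 from limma, 0.0077 to 0.578 over all alternatives).

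**Figure D2:**
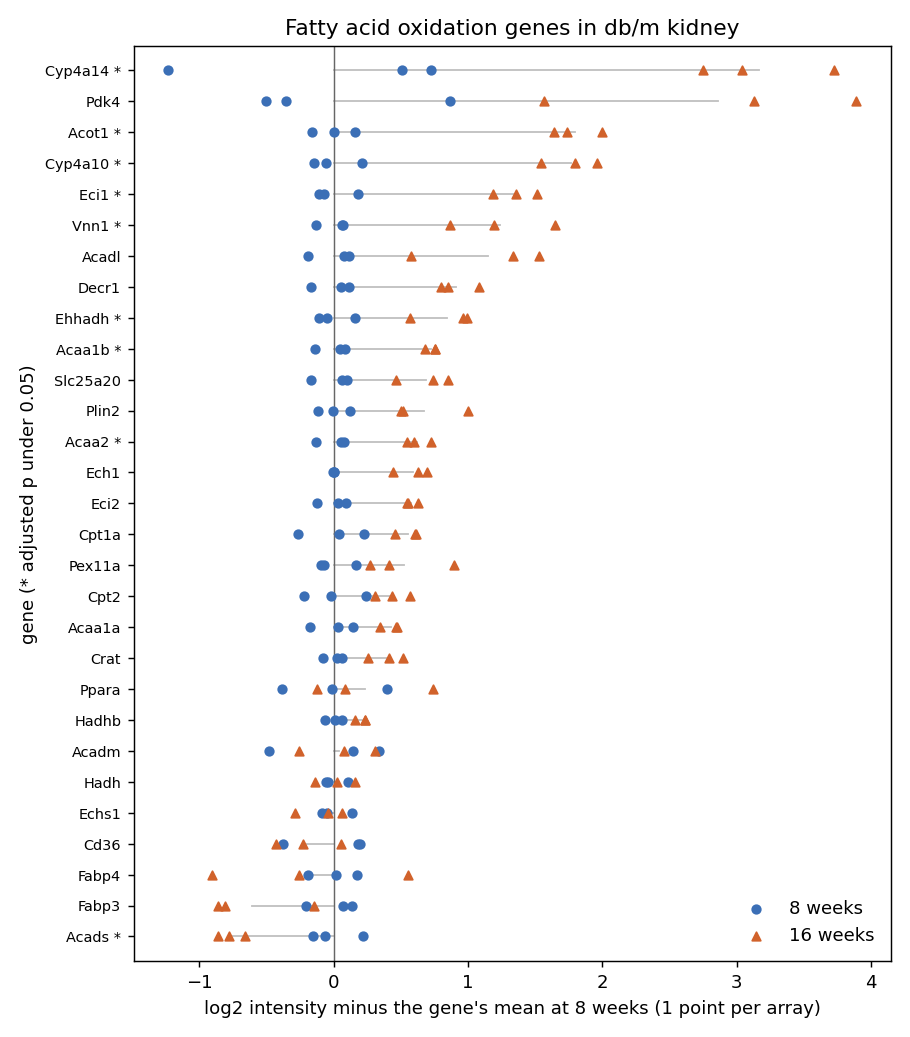
Log2 intensity of each array minus the gene's mean at 8 weeks, for the 29 fatty acid oxidation genes that passed the filter (8 weeks, circles; 16 weeks, triangles; the line joins the 2 means; * marks an adjusted p under 0.05). In 21 genes all 16 week arrays lie to the right of all 8 week arrays, and Cyp4a14 has the largest change, 3.17.

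Promoter sequence was examined for this list because 21 of its members were separated upward and many are known targets of PPAR-alpha, which binds direct repeats of a short nuclear receptor motif. Windows of 250 bases before the annotated gene start were taken from RefSeq (GRCm38.p6). Of the 29 genes 22 had a window, and both strands were searched. Cyp4a14, Cyp4a10 and Vnn1 had none. The single motif AGGTCA occurred in 5 of them (22.7%, beside 15.8% of the 27025 genes with a window), the variant AGGTTA in 2 (9.09%, beside 8.38%) and the direct repeat of the motif, within which AGGTCA can lie, in 0 (beside 0.4%). The direct repeat is so rare that 0 among 22 windows carries little information. The genes with AGGTCA were Acadm, Cd36, Cpt1a, Echs1 and Plin2, and none of these passed. Those with AGGTTA were Cpt2, which did not pass, and Eci1, which did. A pair of members that rose are shown, with a matched motif in capitals, to give the sequence before their start. In Eci1, at chr17:24426433-24426682 on the plus strand, AGGTTA lies on the opposite strand and begins 81 bases before the start. In Ehhadh, at chr16:21787835-21788084 on the minus strand, the capitals mark the short sterol element core TCACNCCA on the opposite strand, 170 bases before the start.
Eci1: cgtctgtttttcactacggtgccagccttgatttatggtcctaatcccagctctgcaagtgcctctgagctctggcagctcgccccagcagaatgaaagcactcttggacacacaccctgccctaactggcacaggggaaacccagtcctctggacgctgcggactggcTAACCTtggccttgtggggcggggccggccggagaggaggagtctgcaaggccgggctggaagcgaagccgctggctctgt
Ehhadh: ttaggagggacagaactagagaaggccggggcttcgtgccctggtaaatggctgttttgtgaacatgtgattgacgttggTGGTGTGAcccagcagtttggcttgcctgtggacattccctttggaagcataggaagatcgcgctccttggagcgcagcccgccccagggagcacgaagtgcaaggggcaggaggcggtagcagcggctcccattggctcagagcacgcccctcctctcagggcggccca

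A pair of aldehyde dehydrogenases rose. Aldh1a1, which oxidises retinaldehyde to retinoic acid, had the smallest p of all probe sets: 3193, 2856 and 2673 at 8 weeks and 9679, 10980 and 8560 at 16 weeks. Replicates of an age lay close together and the ages far apart (log2 change 1.74, SE 0.15, adjusted p from limma 0.000918). Its close relative Aldh1a7 was at 1121, 1110 and 1160 and at 3374, 3728 and 3037 (1.58, SE 0.24, adjusted p from limma 0.017). The 2 genes are similar in sequence, so their probe sets may share signal. Of 30 kept genes of xenobiotic and steroid metabolism these 2 and both Cyp4a genes rose and none fell, beside 0.522% and 0.299% of all genes. The list's median log2 change was 0.13, and 10 of its genes were separated upward and 6 downward, beside 11.9% and 12.6%. Hsd11b1, which regenerates active glucocorticoid, was at 7700, 7633 and 11120 at 8 weeks and at 5503, 4822 and 2822 at 16 weeks, a log2 change of -1.04 that did not pass (SE 0.26, adjusted p from limma 0.0978). Hsd11b2, which inactivates it, had a log2 change of -0.42 (adjusted p from limma 0.406). Alox15, a lipoxygenase, rose 2.83-fold, to 4407, 2758 and 2213 from 999, 907 and 1311 (adjusted p from limma 0.0488). Xdh, the xanthine dehydrogenase, rose 2.00-fold, to 577, 827 and 785 from 336, 381 and 362 (0.0203). The call of Alox15 ended without any 1 of the 5 db/m arrays other than 16 week replicate 3 (0.116 to 0.175). That of Xdh ended without any 1 of the 8 week arrays or 16 week replicate 2 (0.0513 to 0.107).

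Glucocorticoid-responsive genes were mostly higher at 16 weeks, with few individual calls. Of 31 kept genes 3 rose and none fell, the median log2 change was 0.57, and 17 were separated upward and 0 downward, beside 11.9% and 12.6% of all genes. Zbtb16, a zinc finger repressor, was at 241, 296 and 232 at 8 weeks and at 2682, 1559 and 629 at 16 weeks. Each 16 week array was above every 8 week array, with a wide spread among the older kidneys (2.44, SE 0.42, adjusted p from limma 0.025). Angptl4, an inhibitor of lipoprotein lipase that is also a PPAR-alpha target, was at 624, 708 and 1043 against 4027, 3176 and 1829 (1.89, SE 0.36, adjusted p from limma 0.0391). Pck1, the rate-limiting enzyme of glucose production from lactate and amino acids, was at 11350, 10410 and 9528 against 20820, 18170 and 24690, with no overlap (1.02, SE 0.17, adjusted p from limma 0.0239). Dimmer probe sets of Angptl4 had 1.65 and 0.47 and did not pass. All 3 calls ended without any 1 of the 5 db/m arrays other than 16 week replicate 3, at adjusted p 0.0563 to 0.116 for Zbtb16, 0.107 to 0.164 for Angptl4 and 0.0619 to 0.116 for Pck1 (limma; over all alternatives 0.00196 to 0.706, 0.00411 to 0.764 and 0.00328 to 0.318).

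Several further members had positive values without passing. Igfbp1, an insulin-like growth factor binding protein suppressed by insulin, had 1175, 1099 and 701 at 8 weeks and 2566, 2834 and 2939 at 16 weeks (1.52, SE 0.32, adjusted p from limma 0.0558). Fkbp5, a chaperone of the glucocorticoid receptor, had a log2 change of 1.05 (0.164) and Per1 of 0.71 (0.26). Mt1, Mt2 and Sgk1 had 0.37, 0.39 and 0.07, and Sgk1 overlapped between ages. Foxo3, a transcription factor restrained by insulin signalling, is in no list of glucocorticoid targets here and rose by 1.00 (SE 0.16, adjusted p from limma 0.0203) on the log2 scale, to 6638, 4601 and 4999 from 2879, 2708 and 2457. Its call ended without any 1 of the 5 db/m arrays other than 16 week replicate 3 (0.0563 to 0.112). Of the 28 genes with an upstream window, 4 (Map3k6, Mt1, Sgk1 and Txnip) held the glucocorticoid receptor palindrome (14.3%, beside 0.44% of all genes), and none of these 4 passed.

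Cholesterol and fatty acid synthesis contributed 3 of the 16 genes that fell. Of 40 genes listed 27 were kept, and of these 3 fell and none rose, beside 0.299% and 0.522% of all genes. The median log2 change was -0.27, 23 of 27 were negative, and 12 were separated downward and 1 upward, beside 12.6% and 11.9%. Fdps, which joins isoprene units to farnesyl diphosphate, was at 5290, 3222 and 3034 at 8 weeks and at 1314, 1481 and 1676 at 16 weeks. The ages did not overlap (-1.33, SE 0.22, adjusted p from limma 0.0239), and a dimmer probe set at -0.89 did not pass. Nsdhl, which removes a carbon group from the sterol ring, fell on all 3 of its probe sets, and the brightest was at 6032, 5881 and 6816 against 2755, 3002 and 3151 (-1.07, SE 0.17, adjusted p from limma 0.0203). Elovl6, which lengthens fatty acids, was at 684, 661 and 597 against 353, 297 and 392 (-0.91, SE 0.18, adjusted p from limma 0.0488). The calls of Fdps and of the brightest probe set of Nsdhl ended without 8 week replicates 1 or 3 or 16 week replicates 1 or 2 (limma adjusted p 0.0612 to 0.115 and 0.0634 to 0.107), and that of Elovl6 also without 8 week replicate 2 (0.13 to 0.172). Of the dimmer probe sets of Nsdhl, one ended without the same 4 arrays (0.0699 to 0.107) and the other without any 1 of the 6 (0.0657 to 0.158). Over all alternatives the adjusted p was 0.0071 to 0.564 for Fdps, 0.00315 to 0.551 for the brightest probe set of Nsdhl and 0.00949 to 0.81 for Elovl6. With the actin ratio as a covariate, the log2 changes were -1.22 for Fdps, -0.94 for the brightest probe set of Nsdhl and -0.61 for Elovl6.

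Idi1 and Msmo1 had the largest falls in the list but did not pass. Idi1, an isoprene isomerase, was at 8835, 7196 and 9787 and at 3433, 4626 and 2304 (-1.36, SE 0.35, adjusted p from limma 0.103). Msmo1, a sterol demethylase, was at 1191, 1009 and 764 and at 323, 311 and 558 (-1.34, SE 0.38, adjusted p from limma 0.141). Srebf1, which encodes an SREBP factor, had a log2 change of -0.39 (0.232). Other steps lay near 0: Hmgcs1 and Sqle, steps known to follow sterol demand, had -0.10 and -0.17 with overlapping ages, and Fasn, the fatty acid synthase, had -0.05. Acly, which supplies the building block for both products, was separated upward at 0.30. Of the 19 genes with an upstream window, the sterol regulatory element occurred in 0 (beside 0.226% of all genes). It is so rare that 0 among 19 windows carries little information, and the fallen gene Fdps had no window. Its short core TCACNCCA, which lies within it, occurred in Gpam, Hmgcs1 and Msmo1 (15.8%, beside 4.2%), none of which passed. Upstream windows of the fallen genes Nsdhl (chrX:72918271-72918520, plus strand) and Elovl6 (chr3:129532136-129532385, plus strand) are shown for comparison with those of the risen ones. Capitals mark the nuclear receptor variant AGGTTA on the opposite strand 82 bases before the start of Nsdhl and AGGTCA on the opposite strand 193 bases before that of Elovl6.
Nsdhl: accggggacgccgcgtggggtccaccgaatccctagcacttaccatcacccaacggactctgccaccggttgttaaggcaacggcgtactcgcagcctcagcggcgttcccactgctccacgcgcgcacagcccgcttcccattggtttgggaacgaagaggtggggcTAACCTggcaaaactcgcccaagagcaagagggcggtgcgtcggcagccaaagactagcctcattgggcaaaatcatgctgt
Elovl6: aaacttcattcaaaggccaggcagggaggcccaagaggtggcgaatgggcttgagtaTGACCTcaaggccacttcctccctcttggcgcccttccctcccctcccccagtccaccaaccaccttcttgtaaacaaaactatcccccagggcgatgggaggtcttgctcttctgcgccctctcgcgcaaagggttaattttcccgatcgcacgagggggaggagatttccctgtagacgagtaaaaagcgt

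**Figure D3:**
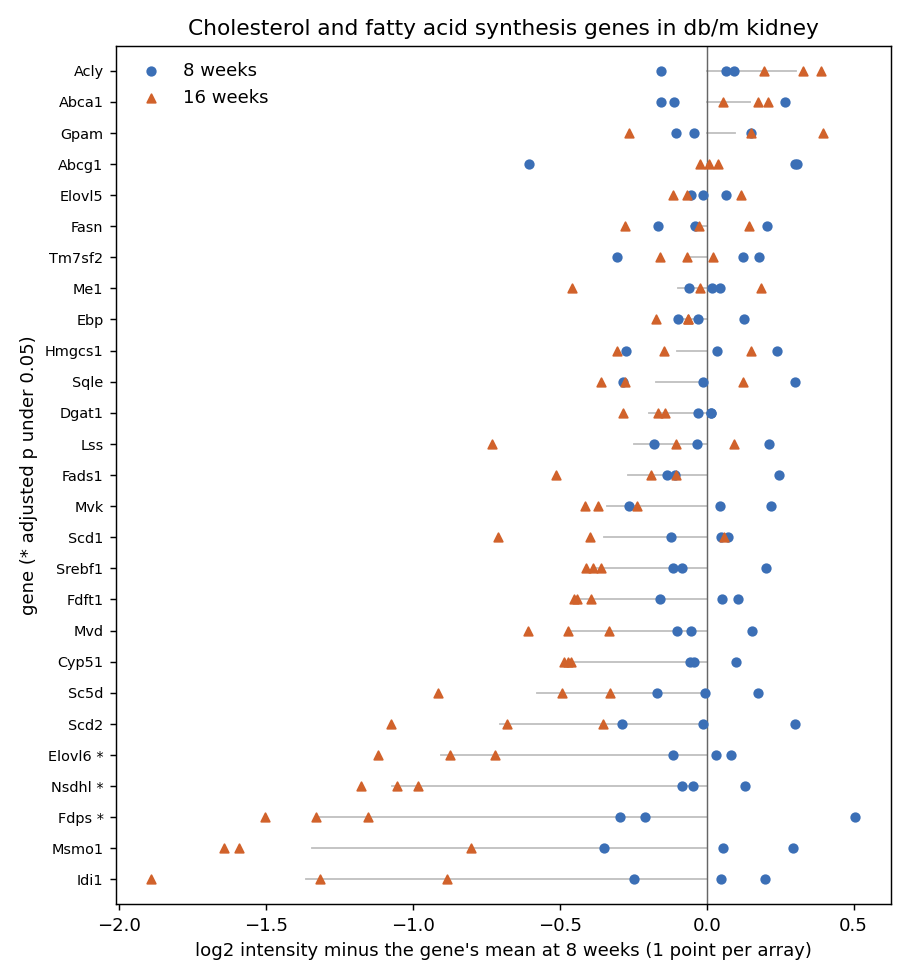
Log2 intensity of each array minus the gene's mean at 8 weeks, for the 27 kept genes of cholesterol and fatty acid synthesis (8 weeks, circles; 16 weeks, triangles; the line joins the 2 means; * marks an adjusted p under 0.05). In 12 genes all 16 week arrays lie to the left of all 8 week arrays, and in Acly they lie to the right.

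Hnf4a, Pdia6 and Nt5e were among the genes with the largest falls. Hnf4a, a nuclear receptor that directs proximal tubule and liver genes, was at 2416, 2644 and 4222 at 8 weeks and at 580, 593 and 1090 at 16 weeks. The lowest 8 week array was above the highest 16 week array (-2.06, SE 0.31, adjusted p from limma 0.0179). Dio1, which activates thyroid hormone, was at 1354, 1235 and 1066 against 401, 416 and 630 (-1.36, SE 0.19, adjusted p from limma 0.0113). Nt5e, a surface enzyme that makes adenosine and stands in the list of smooth muscle and fibroblast genes, was at 1248, 1251 and 2556 against 415, 401 and 712 (-1.69, SE 0.34, adjusted p from limma 0.0484). Pdia6, a disulfide isomerase of the endoplasmic reticulum, fell by 1.73 (SE 0.24) on the log2 scale (-0.97 and -0.41 on 2 dimmer probe sets that did not pass), Gcnt1, a glycosyltransferase, by 1.43 (SE 0.25), and Cldn8, a claudin of distal tight junctions, by 1.38 (SE 0.22). With the actin ratio as a covariate the log2 changes were -1.21 for Hnf4a, -1.19 for Dio1, -1.07 for Nt5e, -1.28 for Pdia6 and -0.92 for Gcnt1. The call of Hnf4a ended without 8 week replicate 3 or 16 week replicates 1 or 2 (limma adjusted p 0.0657 to 0.0878, 0.00243 to 0.473 over all alternatives), and that of Dio1 without 16 week replicates 1 or 2 (0.0577 to 0.0619, 0.00243 to 0.438). Pdia6 ended on the same arrays as Hnf4a (0.0577 to 0.0619). Nt5e and Gcnt1 ended without any 1 of the 5 db/m arrays other than 16 week replicate 3 (0.0754 to 0.175 and 0.0513 to 0.121). Cldn8 ended without 8 week replicates 1 or 3 or 16 week replicates 1 or 2 (0.0767 to 0.112). Ten1 fell by 1.82 (SE 0.30), to values near the lowest kept. Cand1 fell by 1.11 (SE 0.20), Ptgr1 by 0.88 (SE 0.17), St3gal6 by 0.86 (SE 0.15) and Stk16 by 0.78 (SE 0.15). The calls of Ten1, Ptgr1, St3gal6 and Stk16 ended on the same arrays as Nt5e, and that of Cand1 without 8 week replicates 2 or 3 or 16 week replicates 1 or 2.

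For several falling genes the array had more than 1 probe set, and these did not always move together. Lypla1, which removes palmitate from proteins, fell on 3 of its probe sets, by 1.07 to 1.28 on the log2 scale, and 2 others at -0.52 and -0.29 did not pass. In 7 genes a dimmer probe set fell while the brightest did not pass: Ak3, Coprs, Cyb561, Gng12, Psap, Rnf13 and Ssr3. Psap, a precursor of lysosomal activator proteins, had -2.05 on the dimmer probe set and -0.10 on the brightest, and Cyb561 had -0.89 and 0.17. The 7 are therefore not counted among the 16 genes that fell. In the list of proximal tubule enzymes, which also holds the regulator Hnf4a, 1 of 31 kept genes rose (Pck1) and 2 fell (Hnf4a and Dio1), beside 0.522% and 0.299% of all genes. Of these 31, 8 were separated upward and 11 downward, beside 11.9% and 12.6%, and the median log2 change was -0.08. The 32 kept transporters had a median of -0.04 and no call, with 5 separated upward and 2 downward. Cubn, the endocytic receptor cubilin, was among the nearest transporters, at 9224, 9802 and 7727 against 13160, 15560 and 13610 (0.67, SE 0.14, adjusted p from limma 0.0559).

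The surface proteins Sdc4 and Pigr rose at the transcript level. Sdc4, a heparan sulfate proteoglycan, was at 1937, 1553 and 1294 at 8 weeks and at 7943, 5170 and 5850 at 16 weeks, with no overlap (1.98, SE 0.23, adjusted p from limma 0.00481). Pigr, the receptor that carries immunoglobulin A across epithelia, was at 9071, 8786 and 6209 against 24230, 57970 and 20290. The 16 week replicate 2 lay far above the other older kidneys (1.95, SE 0.36, adjusted p from limma 0.0313), and the call ended without any 1 of the 5 db/m arrays other than 16 week replicate 3 (limma adjusted p 0.0657 to 0.139, 0.00756 to 0.748 over all alternatives). Fgg, the fibrinogen gamma chain that is also made by stressed tubules, was at 299, 195 and 165 against 658, 866 and 978 (1.95, SE 0.27, adjusted p from limma 0.0113), a call that ended without 8 week replicate 3 or 16 week replicate 2 (0.0612 to 0.0619, 0.0033 to 0.267 over all alternatives). With the floor at the 50th percentile the log2 change of Fgg was 0.79 and it did not pass. Fgg and S100a10, which rose by 0.88, were the 2 calls among 23 kept genes of tubular injury and repair, beside 0.522% of all genes. In that list 9 genes were separated upward and 1 downward, beside 11.9% and 12.6%, and the median log2 change was 0.18. Slc25a25, a mitochondrial ATP carrier, rose by 1.73 (SE 0.28) and Gldc, of glycine breakdown, by 1.22 (SE 0.21). The calls of S100a10 and Slc25a25 ended without 8 week replicates 1 or 3 or 16 week replicates 1 or 2. Their limma adjusted p was then 0.0712 to 0.107 and 0.0657 to 0.107. That of Gldc ended without any 1 of the 5 db/m arrays other than 16 week replicate 3 (0.0563 to 0.124).

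Most genes of antigen presentation had higher values at 16 weeks, and none was called. Of 18 kept genes 17 had a positive log2 change, the median was 0.67, and 11 were separated upward and 0 downward, beside 11.9% and 12.6% of all genes. The 16 week replicate 2 led. The mean log2 shift of the list from the 8 week level was 0.33, 1.38 and 0.37 on the 3 older arrays. Cd74, the invariant chain of class II molecules, was at 6290, 6686 and 6414 at 8 weeks and at 10440, 31240 and 11950 at 16 weeks (1.28, SE 0.50, adjusted p from limma 0.291). The class I light chain B2m was at 12170, 16060 and 12570 against 19380, 24020 and 16750 (0.56, 0.187). Summed intensity of macrophage and granulocyte markers was 12810, 14590 and 14790 at 8 weeks and 14930, 21050 and 14620 at 16 weeks, and 13 of 15 kept markers were positive. Aif1, Fcer1g, Itgam and Ngp were at the floor, the lowest value kept, on all 6 arrays. Summed lymphocyte markers were 6020, 5738 and 5689 against 9654, 7433 and 5194. Of 7 kept lymphocyte genes 2 had a positive and 5 a negative log2 change (median -0.26). The highest was 2.76, for Igha, which did not pass (adjusted p from limma 0.131). Ighm counted as negative on its brightest probe set (-0.55). Its dimmer probe set was at the floor on all 8 week arrays and at 1435, 720.5 and 358.7 at 16 weeks. That is at least 4.63-fold higher, and it did not pass (adjusted p from limma 0.164), so the 2 probe sets of Ighm disagree. In whole tissue, more cells of a type and more RNA per cell cannot be told apart, and the part of these cells in the class II signal was not tested.

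Genes of other tissues also differed between single arrays. Acta1, which encodes skeletal muscle actin, had intensities of 155 (the floor to which dim values were raised), 1101 and 305 at 8 weeks and of 2616, 7472 and 1563 at 16 weeks (log2 change 3.07, SE 0.64, adjusted p from limma 0.0553). Summed intensity of muscle markers was 16220, 17510 and 16550 against 20650, 36660 and 18010. Of the 24 muscle genes on the array, 2 (Mb and Myh2) were at the floor on all 6 arrays. Of 13 kept muscle genes 8 had a positive and 5 a negative log2 change (median 0.38). Adipoq, the adiponectin of fat cells, was at the floor on all 8 week arrays and at 941, 551 and 208 at 16 weeks, at least 3.07-fold higher, and did not pass (adjusted p from limma 0.513). Summed adipose markers were 37360, 36730 and 44880 against 52080, 40560 and 49240, with Cidec, Pparg and Retn at the floor, and of 12 kept adipose genes 7 were positive and 5 negative (median 0.07). Summed adrenal markers were 31310, 30840 and 30620 against 27080, 33870 and 25340, with Chgb and Cyp11a1 at the floor. Of 6 kept adrenal genes 5 were positive and 1 negative (median 0.14). The highest was Pnmt, at 155, 181 and 184 against 890, 881 and 498. It did not pass (2.08, adjusted p from limma 0.111), and its dimmer probe set had -0.04. Ranks of the arrays in Acta1 and in Cd74 both put 16 week replicate 2 first. The part of adjoining tissue in the genes that rose was not tested.

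No kept gene of the lists for the later nephron segments and the glomerulus was called, although Cldn8, outside these lists, fell. Of all genes only 0.522% rose and 0.299% fell, so the lack of calls among so few genes carries little information. Tfcp2l1, a collecting duct transcription factor also outside them, rose by 0.83 on the log2 scale, to 11710, 12850 and 12150 from 6894, 7105 and 6711 (adjusted p from limma 0.0203, with a dimmer probe set at 0.15 that did not pass). Its call ended without any 1 of the 5 db/m arrays other than 16 week replicate 3 (0.0541 to 0.112, 0.00275 to 0.45 over all alternatives). List medians were -0.22 for 9 kept genes of the thick ascending limb, -0.20 for 10 of the distal and connecting tubule, -0.23 for 13 of the collecting duct and -0.11 for 15 of the glomerulus. In the same order 7, 9, 11 and 12 genes were negative, while 2634 of all 5360 genes were positive. Separated downward were 1, 4, 2 and 2, and upward 0, 0, 1 and 0, beside 12.6% and 11.9% of all genes. Among distal genes the calcium-binding protein genes Calb1 and S100g had -0.74 (adjusted p from limma 0.184) and -0.66 (0.0711), with all 16 week arrays below all 8 week arrays, and a dimmer probe set of S100g had -0.15 with overlapping ages. Of 48 kept genes of mitochondrial respiration none was called, 40 were negative, 15 were separated downward and 1 upward, beside 12.6% and 11.9% of all genes, and the median was -0.15, while genes of fatty acid oxidation had 0.58. Of 27 kept genes of the cell cycle none was called, and 6 were separated downward and 1 upward, beside the same shares. Ccnb2, a mitotic cyclin, was at 1613, 1744 and 1099 against 801, 879 and 587 (-0.97, adjusted p from limma 0.0817). Ribosomal protein genes (22 kept) had a median of -0.04, and kidney development genes (16 kept) one of 0.09.

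**Figure D4:**
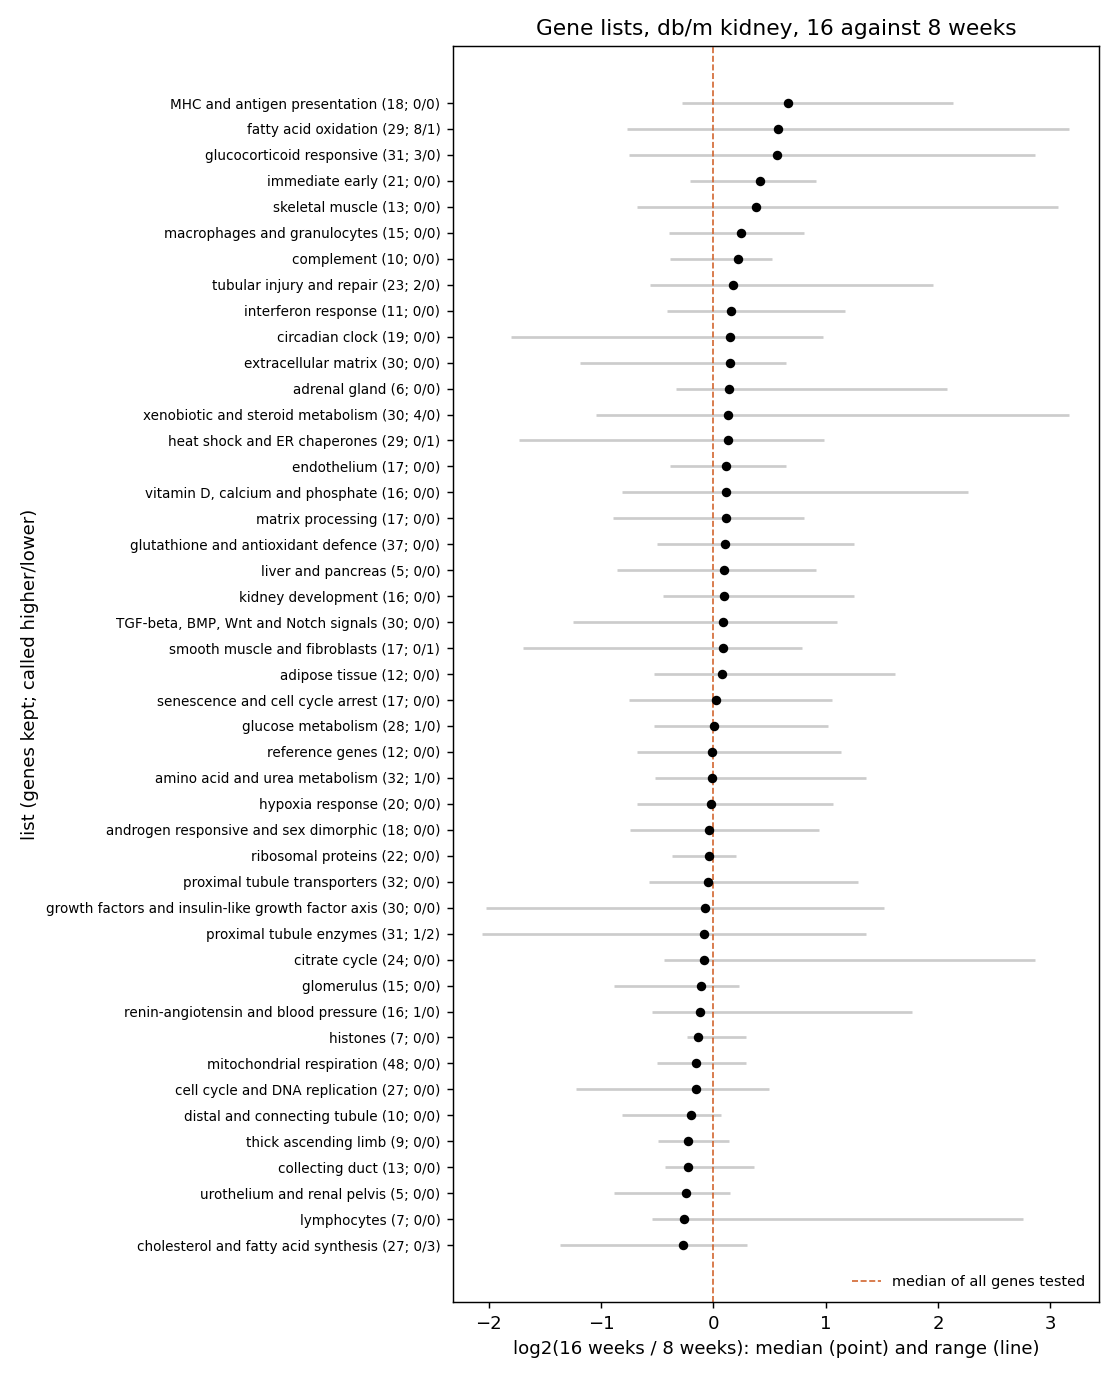
Median log2 change between 8 and 16 weeks in db/m kidney (point) and full range (line) of each gene list with at least 5 kept genes; the label gives the genes kept and those called higher and lower, and the dashed line is the median of all genes, -0.01. Antigen presentation (0.67), fatty acid oxidation (0.58) and glucocorticoid-responsive genes (0.57) have the highest medians, and cholesterol and fatty acid synthesis (-0.27) the lowest.

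Genes that follow the time of day and handling were uneven between arrays, and the labels give no hour of sampling. Dbp, an output gene of the circadian clock, was at 2379, 1886 and 567 at 8 weeks and at 311, 304 and 630 at 16 weeks, so that replicate 3 of each age lay apart from its group (log2 change -1.81, SE 0.86, adjusted p from limma 0.416). Nr1d2, a clock repressor, was at 2393, 2212 and 1575 against 1129, 984 and 1557 (-0.76, 0.224), and Cry1 at 472, 471 and 517 against 654, 743 and 1021 (0.70, 0.0895). None of 19 kept clock genes was called, with 3 separated upward and 2 downward, beside 11.9% and 12.6% of all genes. The E-box CACGTG occurred before the start of Cry1, Per1 and Tef, 3 of 16 clock genes with a window (18.8%, beside 6.86% of all genes). Of 21 kept immediate early genes, transcribed soon after a cell is stimulated, none was called, 18 were positive, 6 were separated upward and 0 downward, beside the same shares, and the median was 0.42. The part of sampling hour in these genes was not tested.

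Few age effects passed the test of a difference between lean and diabetic kidneys. With 3 arrays in each group, an effect that did not pass is not thereby equal in both. The age effect in db/db minus that in db/m passed for 8 of 6949 probe sets (0.115%, limma interaction contrast, with 1087 at an unadjusted p under 0.05). Without db/m 8 week replicates 1, 2 and 3 the number was 1, 2 and 2, and without 16 week replicates 1, 2 and 3 it was 11, 2 and 15. Dio1 was the 1 among the 8 whose probe set was also called in db/m: it fell by 1.36 (SE 0.19) on the log2 scale in db/m, and in db/db it was at 417, 448 and 526 at 8 weeks and at 681, 614 and 665 at 16 weeks (0.50, SE 0.19). The difference was 1.86 (SE 0.26, adjusted p from limma 0.0258). In the other 7 the larger change was in db/db. Plin2, a coat protein of lipid droplets in the fatty acid oxidation list, was at 3486, 3753 and 4105 and at 7527, 5392 and 5349 in db/m, with a log2 change of 0.67 (SE 0.30), against 3.64 (SE 0.30) in db/db, and the difference was 2.97 (SE 0.42, adjusted p from limma 0.0258). For the 9 called members of that list the difference did not pass, at an adjusted p from limma of 0.109 for Acads to 0.899 for Acaa1b. Their log2 changes in db/db were 1.96 for Cyp4a14, 1.31 for Acot1, 0.78 for Eci1, 0.59 for Cyp4a10, 0.82 for Vnn1, 0.94 for Ehhadh, 0.65 for Acaa1b, 0.13 for Acaa2 and 0.03 for Acads.

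**Figure D5:**
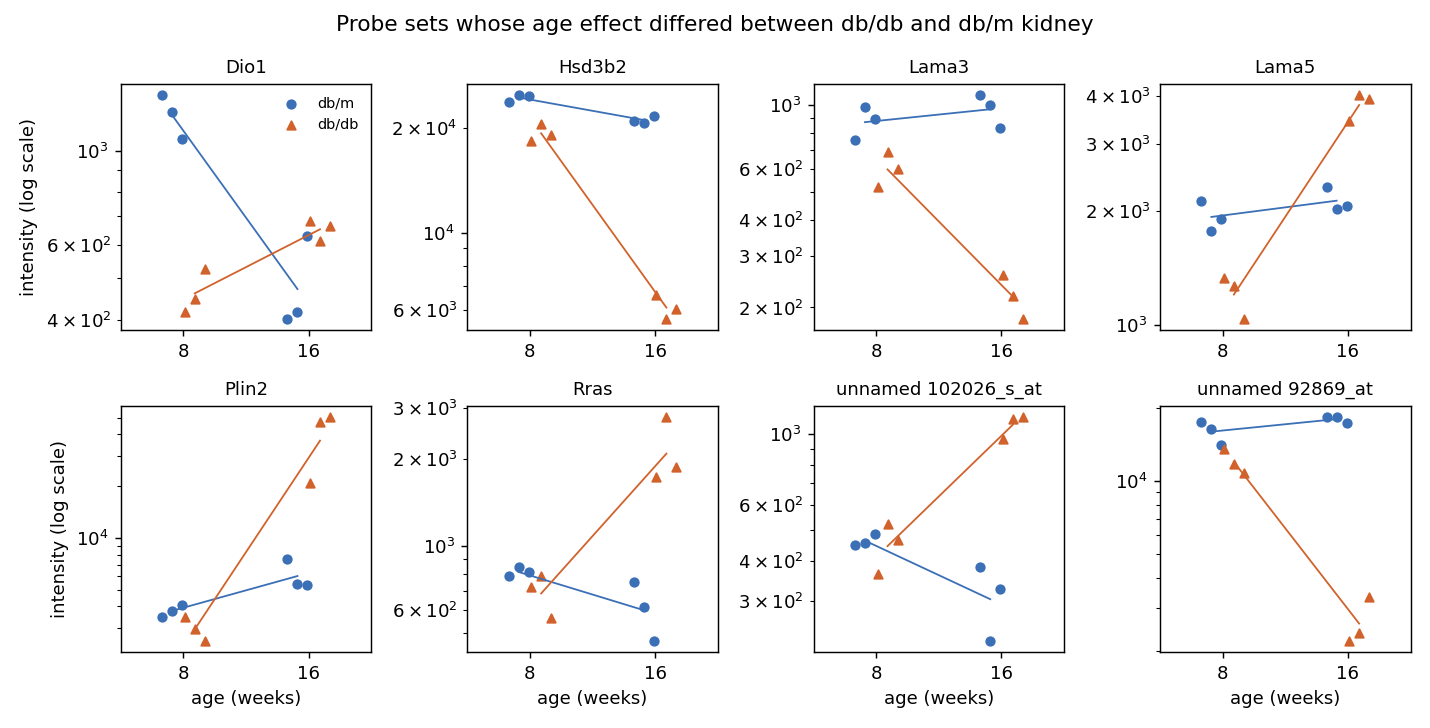
Intensity on a log axis at 8 and 16 weeks for the 8 probe sets with an age effect that differed between genotypes (1 point per array, db/m circles and db/db triangles, spread sideways for legibility; lines join geometric means). Dio1 falls in db/m and not in db/db, and Plin2 has a log2 change of 0.67 in db/m and 3.64 in db/db.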

How the data were processed

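The authors deposited 1 linear intensity per probe set and array, scaled so that the trimmed mean, without the highest and lowest 2%, is equal on all arrays, as the deposited values show. The software behind these values is not given in the sources used here. The number of arrays limits the precision. Here the 12 arrays were quantile normalised, values below the 30th percentile were raised to it (the floor, an intensity of 155), log2 values were taken, and probe sets above the 50th percentile on at least 3 arrays were kept. All 4 groups were fitted in limma 3.58.1 (R 4.3.3) with 1 mean each, and p-values were adjusted by Benjamini-Hochberg over all 6949 probe sets, with 0.05 as the threshold. The difference of the age effects was the interaction contrast. Of 12422 probe sets, 10833 had 1 gene symbol, 396 several and 1193 none in the platform annotation, and only the first kind was named. Where a gene had several kept probe sets the brightest stood for it. Intensities of different probe sets are not compared with each other.

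Named genes were the 15 with the largest changes in each direction among those called, up to 4 called members of each list (or the 2 with the smallest p), a panel of kidney genes and the called interactions. Not all list and panel genes so chosen are printed. Further list members were named to complete a pathway, after their values were seen. The members, lists and tests were chosen with earlier results of these data known. The replicate numbers of the labels are not known to pair the arrays. Deviations of same-numbered db/m arrays correlated at -0.01, 0.075 and 0.06, too few values to settle whether they shared a batch. Scripts were tested on simulated data. Alternatives covered scaling, floor, filter, variance model, arrays fitted, the actin 3' to 5' covariate, a replicate block and each array left out.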

Additional observations from a re-analysis of the deposited data

Results flagged for a closer look

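For 8 probe sets the change with age differed between db/db and db/m kidneys in the test of that difference (limma interaction contrast, db/db minus db/m, on the log2 scale). In 5 the difference was positive: 2.97 for Plin2, which coats lipid droplets, 2.04 for the small GTPase Rras, 1.87 for a probe set with no single gene symbol, 1.86 for Dio1 and 1.51 for the laminin chain Lama5. In 3 it was negative: -1.45 for the steroid dehydrogenase Hsd3b2, -1.60 for the laminin chain Lama3 and -2.38 for a second such probe set. In db/m alone, Rras had a log2 change of -0.44, Lama5 of 0.14, Hsd3b2 of -0.22 and Lama3 of 0.15, and none of these passed. A dimmer probe set of Lama5 had an interaction of 0.67 that did not pass.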

How the results depend on the processing

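All 59 calls of the age comparison kept their direction in every alternative that gave a value. Their number was 92 with the floor at the 50th percentile, 102 with a trended and robust variance, 264 with array weights, 48 with no filter (28 shared with the 59), 23 with only the 6 db/m arrays (18 shared) and 0 with the actin 3' to 5' covariate (382 at an unadjusted p under 0.05, limma). Leaving out single db/m arrays gave 6 to 102. The fit with a replicate block gave 28 (27 shared), and the replicate numbers are not known to pair the arrays. For the interaction, 8 passed, against 50 with the higher floor, 13 with no filter, 40 with a filter on all arrays, 52 with the trended variance, 1167 with array weights, 2 with the covariate, 0 with the replicate block (987 unadjusted, limma) and 1 to 15 without single arrays. The cause of these shifts was not tested.

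Uncalled genes changed sign under some settings. With the covariate these were Laptm5 (-0.086), H3c14 (-0.004), Bpgm (0.19), Col1a1 (-0.59), Cyp24a1 (-1.14), Cyp7b1 (0.51), Egr1 (-1.05), Igf1 (-0.006), Kap (0.047), Mki67 (0.40) and an unnamed probe set (-0.084). With the higher floor Sprr1a had 0.092. Without single arrays the ranges were -0.15 to 0.97 for Cyp24a1, -0.23 to 0.0069 for Cyp7b1, -0.12 to 0.72 for Egr1, -0.29 to 0.035 for Eif2s3y, -0.061 to 0.53 for Gsta2, -0.0015 to 0.35 for Igf1, -0.054 to 0.0045 for Kap, -0.39 to 0.37 for Mki67, -0.23 to 0.041 for Slc12a3 and -1.22 to 0.37 for Sprr1a. Probe sets below the filter were not tested, and values at the floor have no order.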
